A study of Mus musculus with 15 samples.

Results

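Cdk11b and Cdk12 are kinase genes whose proteins act on RNA polymerase II transcription and on splicing. They were taken as the 2 rows of the deposited count table that carry these symbols, of 55490 genes in all and 5763 with a count in any library. Both were picked with their counts in these same libraries known, so their levels and group differences are given as a description, and no p is given for either gene. Of the other genes of their pathway, the 17 that passed a low-count filter were tested, in a fit across 495 genes.

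The data are ribosome-protected RNA fragments from mouse eggs and embryos of B6D2F1 strain. The mothers were Eif4e1b knockout (KO) or heterozygous (Het), and in every group they also carried Rpl22 HA, an epitope-tagged protein of the large ribosomal subunit through which ribosomes were pulled down. Eif4e1b encodes an oocyte paralog of eIF4E, the translation factor that binds the mRNA cap. The 15 libraries fell into 6 groups: 2 KO and 2 Het of M2 eggs, 3 KO and 3 Het of PN5 zygotes, and 2 KO and 3 Het of early 2-cell embryos. Each pooled about 200 eggs or zygotes or about 100 embryos. The labels give the mother's genotype only, name no wild-type mothers, and do not say what drives the tagged Rpl22 or whether libraries came from separate animals. Replicate spread may therefore be technical. In pooled material, fewer cells and less ribosome-bound RNA per cell cannot be told apart.

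Cyclin-dependent kinases work only when bound to a cyclin. The CDK11 protein pairs with L-type cyclins, binds splicing factors and, in human cells, phosphorylates the splicing factor SF3B1 when the spliceosome is activated. A shorter CDK11 isoform is known from human cells to be made from the same mRNA at mitosis. CDK12 pairs with cyclin K and phosphorylates the tail of the largest RNA polymerase II subunit during elongation, and human cells without it lose expression of long genes and of many DNA repair genes. Fully grown oocytes and eggs transcribe little, so new proteins there come from stored maternal mRNA until the embryonic genome is switched on.

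Cdk11b (ENSMUSG00000029062) lies on chromosome 4 from 155624841 to 155649935 in the GRCm38 build. No other annotated gene overlaps it, and its nearest neighbours, the long noncoding RNA Gm16023 (86 bases away) and Mmp23 (720 bases away), had 0 counts each. Cdk12 (ENSMUSG00000003119) lies on chromosome 11 from 98202433 to 98281101. The microRNA gene Mir5119 lies inside it and had 0 counts, and the long noncoding RNA Gm38963 overlaps one end of it and was not matched in the table. The strand setting of the counting was not given in the sources used here.

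Protein-coding mRNA was a small part of each library. Totals ran from 93222 to 1201146 counts per library, and protein-coding counts from 1059 to 47399, or 0.696% to 5.10% of the total. The early 2-cell libraries held 1623 and 1136 protein-coding counts in KO and 1059, 1655 and 7795 in Het. The targeted gene Eif4e1b had 0 counts in all 15 libraries, so it does not check the genotype labels. Of the egg and oocyte markers, 9 of 18 had a count, the zona pellucida genes Zp1, Zp2 and Zp3 were at 0, and 321 of the 351 Npm2 counts came from 1 PN5 Het library. The 2-cell markers had 11 counts in all, 0 of them in early 2-cell KO and 2 in early 2-cell Het, so that label could not be checked at this depth. Levels below are CPM, the counts per 1000000 of a library total scaled by its TMM factor, with group means ± SD over libraries. Where a group is at 0, folds are bounds against a floor of 3 counts over the group. Floors and intervals cover counting error alone, because the reads were amplified by PCR and carry no molecular identifiers.

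Cdk11b was among the most counted mRNAs of eggs and zygotes and the most counted mRNA of early 2-cell Het embryos, yet it had no count in early 2-cell KO embryos. It had 4999 counts in all, rank 9 among protein-coding genes, in 11 of 15 libraries. By mean share of protein-coding counts it ranked 23 in M2 KO, 10 in M2 Het, 12 in PN5 KO, 15 in PN5 Het and 1 in early 2-cell Het. These are ranks of read shares, not of levels per length, since transcript lengths were not used here.

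In M2 eggs, Cdk11b had 0 and 567 counts in the KO libraries, against 280 and 354 counts in the Het libraries. The level was 201 ± 284 CPM in KO and 528 ± 190 CPM in Het (n = 2 each). The KO mean rests on replicate 2, at 401 CPM, which is inside the range of the Het libraries (394 and 663 CPM), while replicate 1 held none. The 5997 protein-coding counts of that KO library would have given 80.3 Cdk11b counts at the lower Het share. The KO mean was 2.63-fold lower than the Het mean, and 1.32-fold lower without KO replicate 1. Cumulus and granulosa markers, of which 8 of 20 had a count in any library, took 0.0167% to 0.177% of protein-coding counts in M2 KO and 0.0988% to 0.861% in M2 Het. Of the 202 Het counts, 169 were of Cyp11a1, which had 5 in KO, and Vcan had 0 in KO and 16 in Het. Other markers went the other way, Inhba with 50 in KO and 0 in Het and Gja1 with 30 in KO and 17 in Het. Their part in the result was not tested. Across all genes, edgeR's quasi-likelihood test for M2 KO against M2 Het called 0 of 495 (0%) at an adjusted p under 0.05, with 6 at an unadjusted p under 0.05, limma-voom called 0 (0%) and DESeq2 2 (0.404%).

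In PN5 zygotes, Cdk11b had 219, 97 and 766 counts in KO, against 308, 761 and 0 counts in Het. The level was 472 ± 291 CPM in KO and 400 ± 479 CPM in Het (n = 3 each), and the groups overlapped. The order of the means turned without PN5 Het replicate 3, the library at 0 (472 CPM in KO and 600 CPM in Het), and without PN5 KO replicate 3 (337 CPM in KO and 400 CPM in Het). The mean of log2(CPM + 1) was 2.65 higher in KO over all libraries. Without PN5 Het replicate 3 it was lower in KO, at a log2 difference of -0.34, and without PN5 KO replicate 3 it was 2.20 higher in KO. As shares of protein-coding counts, Cdk11b took 1.42%, 0.821% and 1.92% in KO, against 0.834%, 2.29% and 0% in Het. The floor of 3 counts in Het replicate 3 was 0.0348% of its 8614 protein-coding counts. Across all genes, edgeR for PN5 KO against PN5 Het called 0 of 495 (0%), with 35 at an unadjusted p under 0.05, limma-voom called 0 (0%) and DESeq2 2 (0.404%).

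**Figure D1:**
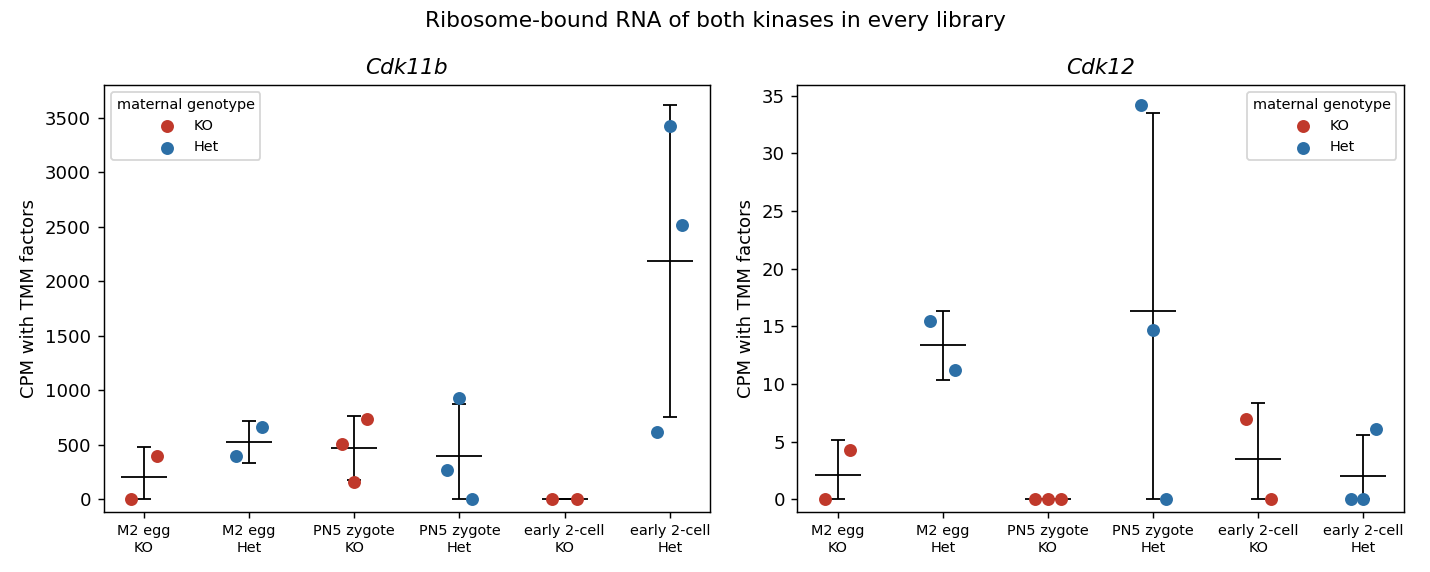
CPM with TMM factors (vertical axis) of Cdk11b (left) and Cdk12 (right) in each library, by stage and maternal genotype. Points are libraries, horizontal bars are group means, and whiskers are 1 SD, stopped at 0. Cdk11b is at 0 in both early 2-cell KO libraries and between 615 and 3426 CPM in the 3 early 2-cell Het libraries, and Cdk12 is at 0 in all 3 PN5 KO libraries.

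In early 2-cell embryos the genotypes stood apart. Cdk11b had 0 and 0 counts in the KO libraries, against 63, 348 and 1236 counts in the Het libraries. The level was 0 CPM in KO (n = 2) and 2187 ± 1435 CPM in Het (n = 3), at least 187-fold lower in KO. The bound follows the floor, and was at least 81.7-fold without KO replicate 1 and at least 105-fold without KO replicate 2. The Het mean depends on the scaling. It was 3795 ± 3413 CPM on library totals and 3623 ± 2419 CPM with DESeq2 size factors, where KO was at least 241-fold and at least 210-fold lower.

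The shares of protein-coding counts show the same gap on a scale that uses no factors. Cdk11b took 5.95% of these counts in Het replicate 1 (exact 95% binomial interval 4.60% to 7.55%), 21.0% in replicate 2 (19.1% to 23.1%) and 15.9% in replicate 3 (15.1% to 16.7%). It was the first-ranked mRNA in each. The same interval for the 0 counts in KO reached 0.227% in replicate 1 and 0.324% in replicate 2, and the floor of 3 counts stood at 0.185% and 0.264%. At the lowest Het share the KO libraries would have held 96.6 and 67.6 counts. Replicate 3 held 75.0% of the Het counts.

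**Figure D2:**
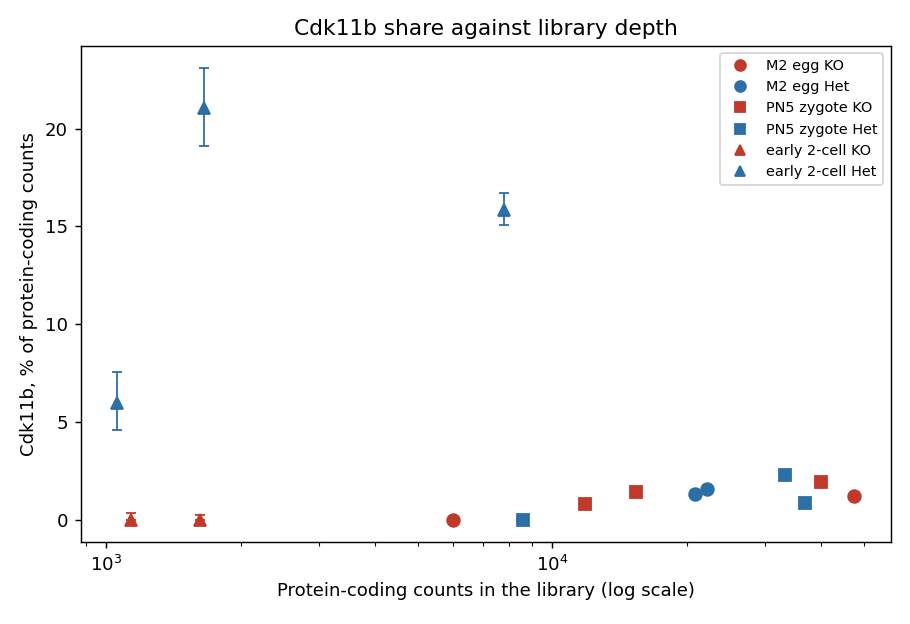
Cdk11b as a percentage of protein-coding counts (vertical axis) against the protein-coding counts of the library (horizontal axis, log scale), 1 point per library with its exact 95% binomial interval. Early 2-cell Het libraries lie between 5.95% and 21.0%, early 2-cell KO libraries lie at 0, and no egg or zygote library exceeds 2.29%. The early 2-cell KO libraries are near Het replicates 1 and 2 in depth, while Het replicate 3 is deeper, at 7795 protein-coding counts.

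Across all genes, edgeR for early 2-cell KO against early 2-cell Het called 0 of 495 (0%), with 25 at an unadjusted p under 0.05. limma-voom called 0 (0%), DESeq2 4 (0.808%) and edgeR without the low-count filter 1 of 5763 (0.0174%). Cdk11b itself was among the 4 of DESeq2 and was the 1 gene called without the filter. Since it was chosen on this contrast, these calls are no test of it. Egg and oocyte markers had 0 counts in early 2-cell KO and 0% to 0.244% of protein-coding counts in early 2-cell Het, and cumulus and granulosa markers 0 counts in KO and 0.0128% to 0.189% in Het. Their part in the gap was not tested.

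Other genes also had early 2-cell KO libraries below the Het libraries. Of the 495 tested genes, 26 (5.25%) had early 2-cell KO libraries all below the Het libraries, and 10 (2.02%) were at 0 in both KO libraries with a count in all 3 Het libraries. Cdk11b, with 1647 Het counts, was followed among these 10 by the cohesin regulator Pds5b with 55, Septin7 with 48, the kinase gene Hipk1 with 27 and the elongation factor gene Aff4 with 20. The other 5 had 6 to 13 Het counts. In all of the 10 but Cdk11b, the lowest Het library held 1 or 2 counts, under the floor of 3, against 63 for Cdk11b. The part of low depth in their zeros was not tested. These genes are named because they share the pattern, and were picked after their values were seen.

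Across stages in Het, Cdk11b was higher in early 2-cell embryos than in zygotes. It was at 2187 ± 1435 CPM in early 2-cell Het and 400 ± 479 CPM in PN5 Het, a 5.46-fold difference of means with overlapping libraries. On library totals that fold was 11.6, again with overlapping libraries, and with DESeq2 size factors 13.03. With those factors the lowest early 2-cell Het library was at 904 CPM and the highest PN5 Het library at 618 CPM. As shares of protein-coding counts these were 5.95% and 2.29%. How many of the 495 tested genes had a like gap was not counted, so it is not read as particular to Cdk11b. With TMM the fold was 3.64 without PN5 Het replicate 3, the library at 0, and 16.2 without PN5 Het replicate 2. The difference in mean log2(CPM + 1) was 4.79 over all libraries and 1.80 without PN5 Het replicate 3. The median log2 fold change of the 495 tested genes in edgeR was -1.90 with TMM, with 147 higher and 341 lower in early 2-cell Het, against 2.45 for Cdk11b. That median was -1.49 on library totals, -0.82 with DESeq2 size factors and 0 over the 5763 genes without the low-count filter. edgeR called 0 of 495 genes here (0%), with 97 at an unadjusted p under 0.05, while limma-voom called 11 (2.22%), DESeq2 49 (9.9%) and edgeR without the low-count filter 3 of 5763 (0.0521%). Between zygotes and eggs, Cdk11b was at 400 ± 479 CPM in PN5 Het and 528 ± 190 CPM in M2 Het, and the groups overlapped. edgeR called 0 of 495 genes (0%) for PN5 Het against M2 Het, with 17 at an unadjusted p under 0.05, limma-voom 0 (0%) and DESeq2 4 (0.808%). In KO the level was 201 ± 284 CPM in M2 eggs, 472 ± 291 CPM in PN5 zygotes and 0 CPM in early 2-cell embryos.

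Cdk11b was either well counted or at 0. Its lowest count above 0 was 63, and the libraries at 0 were M2 KO replicate 1, PN5 Het replicate 3 and both early 2-cell KO libraries. The step from alignments to counts is unknown here, and its part in these zeros was not tested. Of the 50 protein-coding genes with the most counts, 21 had a count in all 15 libraries, the median gene was at 0 in 1 library, and 16, Cdk11b included, were at 0 in a whole group. A group of 6, Cdk11b among them, never fell below 63 counts where they were counted, and all 6 were at 0 in at least 4 libraries. The other 5 were Acbd3, Canx, Dek, Ppp1r12a and Pelp1, also picked after their values were seen.

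Libraries without Cdk11b held 1136 to 8614 protein-coding counts, against 1059 to 47399 in libraries with it. At the median they also lacked more of the leading mRNAs. Of these 50 genes, Cdk11b included, 9 to 17 were at 0 in libraries without Cdk11b (median 16) and 1 to 24 in libraries with it (median 6). Within early 2-cell embryos, 17 were at 0 in each KO library, against 20, 17 and 24 in the Het libraries. The part of library depth in the Cdk11b zeros was not tested at any stage.

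**Figure D3:**
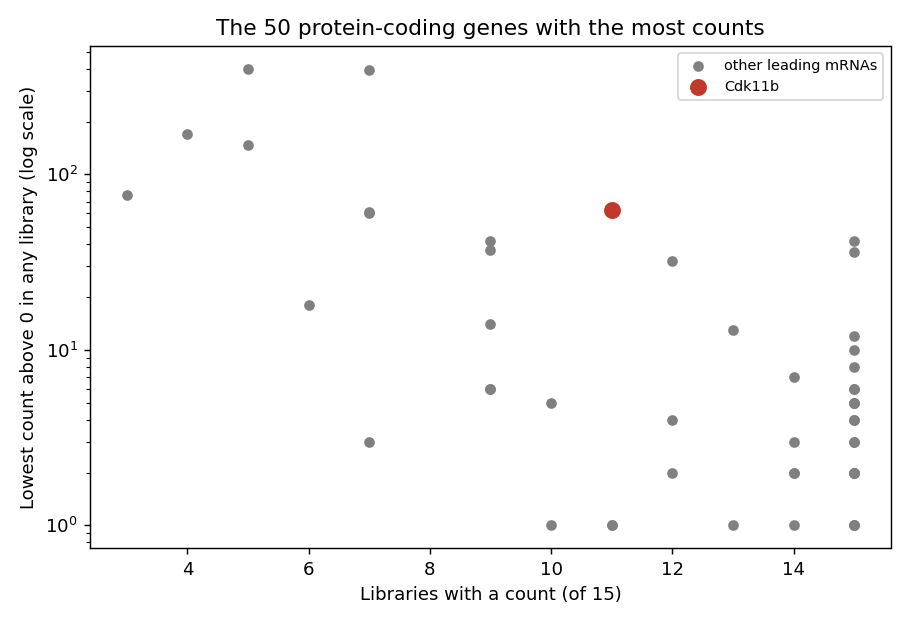
The 50 protein-coding genes with the most counts, by the number of libraries with a count (horizontal axis) and the lowest count above 0 in any library (vertical axis, log scale). Cdk11b (red), with a count in 11 libraries, has a lowest count of 63, above that of every gene found in 12 or more libraries.

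Cdk12 was near the limit of detection throughout. It had 78 counts in 7 of 15 libraries, 39 of them in PN5 Het replicate 1. It nonetheless passed the low-count filter, and lay above the median of 8 counts for the 3795 protein-coding genes with any count.

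In M2 eggs Cdk12 had 0 and 6 counts in KO, against 11 and 6 counts in Het. The level was 0 and 4.24 CPM in KO, against 15.5 and 11.2 CPM in Het, 6.29-fold lower in KO by the means, with a difference in mean log2(CPM + 1) of -2.63. The groups did not overlap, as for 64 of 495 genes in this direction (12.9%). On library totals the nearest libraries were at 5.63 CPM in KO and 5.77 CPM in Het. The KO library at 0 would have held 1.62 to 3.16 counts at the Het shares and held no Cdk11b either. Without it the fold was 3.15.

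In PN5 zygotes Cdk12 had 0 counts in all 3 KO libraries, against 39, 12 and 0 counts in Het. The level was 0 CPM in KO and 16.3 ± 17.2 CPM in Het (n = 3 each), at least 11.2-fold lower in KO. The bound was at least 5.03-fold without Het replicate 1, at least 16.7-fold without Het replicate 3 and at least 5.55-fold without KO replicate 3. Het replicate 3 was also at 0, so the groups overlapped, and 12 of 495 genes (2.42%) were likewise at 0 in all KO libraries with a count in at least 2 Het libraries. The KO libraries would have held 16.3, 12.5 and 42.3 counts at the highest Het share, that of replicate 1, and none at the lowest. Cumulus and granulosa markers were summed in the same libraries. They took 0.254% to 0.908% of protein-coding counts in KO and 0.0116% to 0.135% in Het, and most of the KO sum came from Cyp11a1, with 387 counts in 2 KO libraries and 0 in Het. Inhba also had more in KO, with 25 counts in KO and 2 in Het. Vcan had 15 in KO and 14 in Het, and Ptx3 and Cyp19a1 had 1 each in KO and 0 in Het. The rest went the other way: Gja1 with 15 counts in KO and 39 in Het, Hsd3b1 with 0 in KO and 6 in Het, and Foxl2 with 0 in KO and 3 in Het. Their part in the result was not tested.

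In early 2-cell embryos Cdk12 had 1 and 0 counts in KO, against 0, 0 and 3 counts in Het. Both groups lie at or under the floor of 3 counts, so no fold is given. At the highest Het share the KO libraries would have held 0.625 and 0.437 counts, so a difference was not detectable at this depth.

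Across stages in Het, Cdk12 was at 16.3 ± 17.2 CPM in PN5 zygotes and 13.4 ± 2.99 CPM in M2 eggs, and the groups overlapped. In early 2-cell Het it was at 2.04 ± 3.53 CPM, from 3 counts in 1 library, which overlapped PN5 Het. Summed over stages, Cdk12 had 7 counts in 2 of 7 KO libraries and 71 counts in 5 of 8 Het libraries. As shares of the pooled protein-coding counts these are 0.00567% in KO and 0.0536% in Het, and PN5 Het replicate 1 alone holds more than all others in Het together.

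The kinases were found together in 6 libraries, Cdk11b alone in 5, Cdk12 alone in 1 and neither in 3. All 3 PN5 KO libraries held Cdk11b without Cdk12. In early 2-cell embryos, KO libraries lacked Cdk11b while 1 of them held a single Cdk12 count. M2 KO replicate 1 and PN5 Het replicate 3 lacked both.

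The cyclins that activate these kinases were hardly counted. Cyclin K (Ccnk), the partner of CDK12, had 0 counts in all 15 libraries. The L-type cyclin genes Ccnl1 and Ccnl2, partners of CDK11, had 24 counts in 4 libraries and 8 counts in 1 library. Ccnl1 had 9 counts in M2 KO, 3 in M2 Het, 8 in PN5 KO, 0 in PN5 Het, 4 in early 2-cell KO and 0 in early 2-cell Het, each from a single library where there was any. Kinase and cyclin were thus read together in few libraries: Ccnl1 was counted in 3 of the 11 libraries with Cdk11b and in 1 early 2-cell KO library without it.

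Among the other transcription kinases, the CDK12 paralog came nearest to it in counts. Cdk13, which also binds cyclin K, had 54 counts in 7 libraries. By group these were 16 in M2 KO, 9 in M2 Het, 13 in PN5 KO, 15 in PN5 Het, 1 in early 2-cell KO and 0 in early 2-cell Het. Unlike Cdk12, Cdk13 had counts in PN5 KO, in 2 of 3 libraries, though the difference between the genes was not tested. The treatment of reads that match both paralogs was not given in the sources used here. Among the rest, the Mediator kinase Cdk8 had 10 counts, Cdk20 had 8 and Cdk10 had 1. Cdk7, Cdk9 and Cdk19, the kinases of TFIIH, of P-TEFb and of Mediator, had 0 counts in every library. Of 16 other cyclin-dependent and related kinases, 5 had any count, 28 counts in sum, among them Cdk17 with 13 and Cdk2 and Cdk14 with 3 each.

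**Figure D4:**
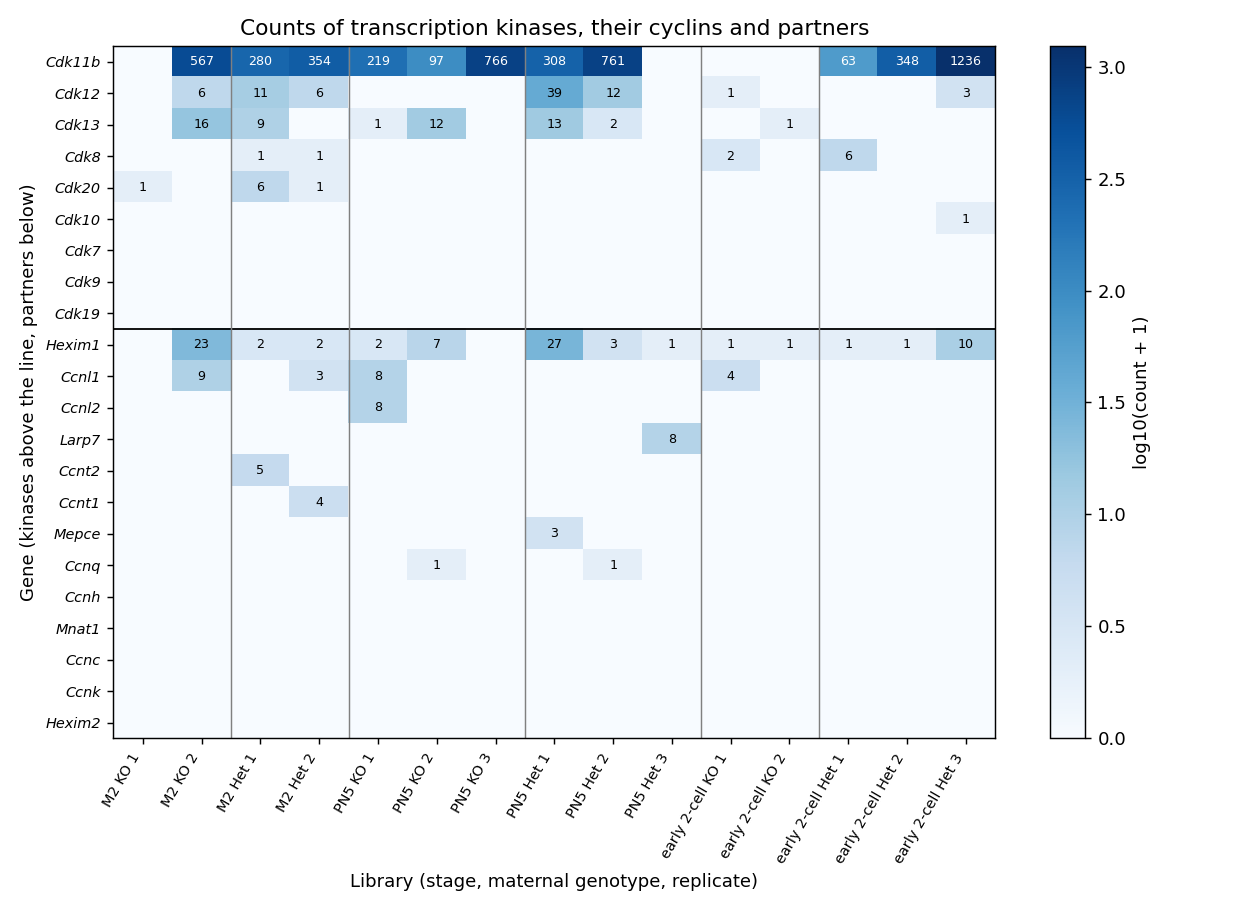
Counts per library (columns, KO left of Het within each stage) of the transcription kinases (above the line) and of the cyclins and partners reported here (below), coloured by log10(count + 1), with counts above 0 printed. Cdk11b stands at 63 to 1236 in 11 libraries, Cdk12 and Cdk13 stay at or under 39, and Ccnk, Cdk7, Cdk9 and Cdk19 are empty.

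Hexim1, which encodes an inhibitor of the P-TEFb kinase, was read in more libraries than the L-type cyclins. It had 81 counts in 13 libraries and was at 7.93 ± 1.41 CPM in early 2-cell KO (n = 2) and 13.3 ± 6.11 CPM in early 2-cell Het (n = 3). It passed in none of the 5 edgeR comparisons, nor did any other tested gene, and it had 1 count in each early 2-cell KO library.

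Other splicing kinases gave a varied picture. Of 15 such genes, 9 had a count and 4 passed the filter. Srpk2, a kinase of serine- and arginine-rich splicing factors, had 562 counts in eggs and zygotes and 0 in all 5 early 2-cell libraries. It was at 45.3 ± 54.4 CPM in PN5 KO and 109 ± 101 CPM in PN5 Het (n = 3 each), with 1 library at 0 in each group. Its relative Srpk1 had 146 counts in 12 libraries, with 7.93 ± 1.41 CPM in early 2-cell KO and 33.1 ± 41.4 CPM in early 2-cell Het. These levels rest on 1 count in each KO library, under the floor of 3, and on 0, 2 and 39 counts in the Het libraries. Prpf4b, a kinase of the spliceosome, had 195 counts in 8 libraries, 1 of them in early 2-cell KO and 0 in early 2-cell Het.

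Substrates and downstream genes were also unevenly read. Of 21 splicing proteins on the list 15 had a count, led by Srrm2 with 825 counts in 12 libraries, Srrm1 with 243 in 5 and Son with 227 in 9. Sf3b1, the spliceosome substrate of CDK11 in human cells, had 97 counts in 11 libraries. It had 0 counts in early 2-cell KO and 28 in early 2-cell Het, 27 of them in replicate 3. Of 29 genes for RNA polymerase II and its elongation factors 12 had a count, led by Supt5 with 447 in 3 libraries, Supt6 with 257 in 5 and Aff4 with 123 in 12. Polr2a, which encodes the subunit whose tail CDK12 phosphorylates, had 0 counts. Of 15 DNA repair genes known to depend on CDK12 in human cells 3 had a count, Brca2 with 65 in 4 libraries, Brca1 with 9 in 2 and Bard1 with 1. At these counts no change of the repair genes with Cdk12 could be read.

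No member of the 7 pathway lists passed the edgeR test in any comparison, and edgeR called 0 of all 495 genes (0%) in each. Leaving out Cdk11b and Cdk12, 17 members were tested, and edgeR called 0 higher and 0 lower in each of the 5 comparisons. limma-voom likewise called 0, and DESeq2 called 1, the splicing factor gene Tra2b, higher in early 2-cell Het than in PN5 Het, where it called 49 of all 495 genes (9.9%). In early 2-cell embryos, KO against Het, the smallest edgeR adjusted p among them was 0.897. There 4 were higher in KO, 8 lower and 5 level at a fold change of 0, and the median log2 fold change was 0, as it was over all 495 genes. In PN5 zygotes 8 were higher in KO and 9 lower, with a median of -0.16 against 0 over all genes. In M2 eggs 9 were higher in KO and 7 lower, with a median of 0.05 against -0.02. For early 2-cell Het against PN5 Het the median was -2.76 against -1.90, and 2 of the 17 members had an unadjusted edgeR p under 0.05, beside 97 of all 495 genes. For PN5 Het against M2 Het it was 0.88 against 0.10.

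The genes most like each kinase across libraries were ranked by the Pearson correlation of log2(CPM + 1) over the 15 libraries, among 442 tested genes whose symbol is not a clone name. These values describe libraries that share depth and stage. For Cdk11b the nearest were Asxl2, a Polycomb-related chromatin gene, at r = 0.73, the remodeller gene Chd7 at 0.67 and the RNA-binding protein gene Sfpq at 0.66. Asxl2 had only 61 counts, and matched Cdk11b in presence or absence in 14 of 15 libraries. With Spearman's correlation, 0 of these 3 stayed among the first 3, and Asxl2 fell to rank 37. For Cdk12 the nearest were the corepressor gene Ncor1 at r = 0.88, Osbpl8 at 0.79 and Dnajc21 at 0.73. All 3 stayed first by Spearman's correlation, and 2 of them on shares of protein-coding counts, where Dnajc21 fell to rank 13. Ncor1, with 699 counts in 6 libraries, matched Cdk12 in presence or absence in 14 of 15 libraries.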

How the data were processed

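Ribosome-protected fragments were measured in 15 libraries, and 1 table was used. It holds expected counts per gene, deposited by the authors as estimates in whole numbers with no scaling. The submitters' processing notes name cutadapt, deepTools 3.5.1, StringTie 2.1.4 and STAR 2.7.6a, on the build GRCm38. The step from alignments to counts was not given in the sources used here. Biotypes and coordinates came from RefSeq's GRCm38.p6 annotation, matched for 39101 genes by symbol and 164 by an older symbol.

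Rounding changed no value. Genes passing filterByExpr (minimum count 10) numbered 495. One edgeR 4.0.16 quasi-likelihood model (robust, TMM factors, R 4.3.3) was fitted to the 6 group means, with 9 residual degrees of freedom and Benjamini-Hochberg adjustment over all 495. The same model, with library totals in place of TMM factors, was tested on simulated data for KO against Het in PN5 zygotes, at a dispersion of 0.3. There it called 61 of 100 genes with a true absolute log2 fold change of 3, and 92 of 100 at 5. Of 295 genes with no true change it called 4. Recovery with TMM factors, or at the spread of the libraries themselves, was not tested. Alternatives were DESeq2 1.42.0, limma-voom (limma 3.58.1), other scalings, no filter, a replicate block and leaving out libraries. No test of either kinase is used. The members, lists and naming rule (the 3 most counted members of each list, any called member, and the 3 most similar genes) were chosen with earlier results of these data known. Some members that this rule takes are not reported here, though the list totals include them.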

Additional observations from a re-analysis of the deposited data

How the results depend on the processing

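With both KO libraries at 0, no alternative could turn the early 2-cell difference of Cdk11b. In mean log2(CPM + 1) it was -10.77 and became -16.94 when scaled to protein-coding counts and -7.46 with a pseudocount of 10 CPM, and -10.50 as the mean of same-number differences (replicate block). For Cdk12 the -2.63 of M2 eggs became -5.06 when scaled to protein-coding counts and -0.96 with the larger pseudocount, and the -3.04 of PN5 zygotes became -6.18 when scaled to protein-coding counts. These moves follow from the scale, since a group at or near 0 sets the size. Signs turned for Cdk11b in PN5 zygotes (2.65, and -0.34 without PN5 Het replicate 3), for Cdk12 in early 2-cell embryos (0.55, and -0.94 without KO replicate 1) and for Cdk12 between PN5 Het and M2 Het (-0.79, and 0.73 without PN5 Het replicate 3 or with the replicate block). The number of called genes, 0 in each edgeR comparison, was 2, 2, 4, 4 and 49 by DESeq2 (KO against Het in M2 eggs, PN5 zygotes and early 2-cell embryos, then PN5 Het against M2 Het and early 2-cell Het against PN5 Het). It was 11 by limma-voom for early 2-cell Het against PN5 Het, 1 and 3 without the low-count filter for early 2-cell KO against Het and early 2-cell Het against PN5 Het, and 0 to 1 on leaving out single libraries. Where that left 1 library in a group, it was assumed to vary like the others. The causes were not tested. With the replicate block the count stayed 0 in all 5. Nothing in the labels ties replicate numbers to pairs. Same-number deviations correlated at -0.15 for M2, at -0.15, -0.32 and 0.10 for PN5 and at -0.04 and 0.03 for the early 2-cell stage. With 2 or 3 libraries in a group, these values cannot decide whether libraries were paired. Crossing the M2 KO numbers, chosen after seeing the data, also gave 0 called genes. Of the 3 genes most like Cdk11b, 1 stayed among the first 3 on shares of protein-coding counts, and of those most like Cdk12, 2. The floor of 3 counts stood at 2.50 to 32.2 CPM of a library.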
